A study of Mus musculus with 47 samples.

Results

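Genes that handle thyroid hormone were examined in brain RNA of 3xTg mice fed diets low in a single branched-chain amino acid. The set held 8 genes, listed by name and found in the count tables of both sexes by symbol or Ensembl identifier, of 55416 gene identifiers in all. They were the transporter gene Slco1c1, the binding protein gene Crym, the deiodinase genes Dio2 and Dio3, the receptor genes Thra and Thrb, and the hormone-responsive genes Hr and Klf9. The 3xTg mouse is a homozygous Alzheimer's disease model that carries human APP, tau and presenilin transgenes with familial mutations, and every group compared here was 3xTg. Male and female mice were placed at 6 months of age on a Control diet of defined amino acid content or on a diet with less isoleucine (called IleR), less leucine (LeuR) or less valine (ValR), and brains were taken after 9 months. In males, 4 Control, 3 IleR, 3 LeuR and 4 ValR libraries were used, and 10 of the 24 labelled male libraries were not analysed here. The study took out clear outliers, and which libraries these were is not given in the sources used here. In females, 6 Control, 5 IleR, 6 LeuR and 6 ValR libraries were used. Each library is named by its diet and label number (Control 4, for instance).

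Thyroid hormone reaches the brain mainly as the prohormone T4. OATP1C1, the product of Slco1c1, carries T4 across the blood-brain barrier and into astrocytes, where the type 2 deiodinase (Dio2) removes an outer ring iodine to give the active hormone T3. The type 3 deiodinase (Dio3), found mostly in neurons, inactivates both T4 and T3, and mu-crystallin (Crym) binds T3 in the cytosol. T3 acts through the nuclear receptors TRα (Thra) and TRβ (Thrb), which pair with retinoid X receptors, and Hr, a corepressor of the receptor, and Klf9, a zinc finger transcription factor, are well known brain genes induced by T3.

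Both deiodinases are selenoproteins, and their catalytic selenocysteine is encoded by a TGA codon inside the reading frame. The 45 coding bases around the first in-frame TGA are shown for Dio2 and Dio3 because this codon marks the active site that the enzymes share. Capitals mark the codon, and the sequences are from GENCODE M21 transcripts on GRCm38.
Dio2: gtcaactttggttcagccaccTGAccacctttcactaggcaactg
Dio3: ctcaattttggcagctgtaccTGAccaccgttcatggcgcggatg
The Dio2 window lies in exon 2 of 2 on the minus strand at chr12:90729802-90729846, and the TGA is codon 130 of 266. The Dio3 window lies in the single exon on the plus strand at chr12:110279718-110279762, and the TGA is codon 170 of 304. The windows were identical at 28 of 45 bases.

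Promoters of Dio2 and Thrb are shown because both genes were lower than Control in all 3 male comparisons. The 250 bases before the start were taken from RefSeq sequences on GRCm38.p6, which were matched for 5 of the 8 genes, while Crym, Thra and Hr were not matched. Capitals mark the receptor half-site AGGTCA, searched on both strands (TGACCT on the other).
Dio2, chr12:90739039-90739288, minus strand: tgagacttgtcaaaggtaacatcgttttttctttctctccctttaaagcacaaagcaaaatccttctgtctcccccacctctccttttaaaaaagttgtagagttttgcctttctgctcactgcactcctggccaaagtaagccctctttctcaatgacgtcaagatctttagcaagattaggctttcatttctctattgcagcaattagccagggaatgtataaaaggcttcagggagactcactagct
Thrb, first start, chr14:17660710-17660959, plus strand: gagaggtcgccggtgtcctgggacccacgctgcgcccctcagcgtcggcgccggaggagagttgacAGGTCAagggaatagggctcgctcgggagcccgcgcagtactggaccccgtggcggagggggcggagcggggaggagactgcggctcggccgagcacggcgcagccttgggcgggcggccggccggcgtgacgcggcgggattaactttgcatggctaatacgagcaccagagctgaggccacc
The half-site was found once in the Thrb promoter, starting at position -184 from the start, and in 0 of the other 5 promoters of the set (Dio2, Dio3, Slco1c1, Klf9 and the second Thrb start). It was found in 14.0% of 32851 promoters of the same length. The direct repeat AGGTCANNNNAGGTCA was found in none of the 6 promoters of the set and in 5 of all promoters.

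Total counts per library were 12682687 to 25722333 in males and 10672599 to 21370973 in females. The libraries differed in brain region content, and this difference moved with diet in males. A hindbrain score was computed per library by subtracting the mean log2 CPM (TMM-normalised counts scaled to a common library size) of 12 forebrain genes from that of 17 cerebellum and brainstem genes. Control males scored -7.27 to -4.06 and restricted males -3.31 to 1.03, so the groups did not overlap. The summed level of the 12 forebrain markers was 525 to 1776 CPM in Control males and 277 to 465 CPM in restricted males, while the 8 cerebellar markers summed to 52.8 to 114 CPM and to 265 to 2388 CPM. The 9 brainstem markers summed to 0.749 to 15.8 CPM in Control males, where Hoxa2 and Hoxd4 were at 0 in every library, and to 1.35 to 120 CPM in restricted males. In males, brain region content and diet cannot be told apart. Female scores ran from -7.22 to 0.42 and overlapped among all 4 diets. The label text on RNA extraction names liver, and the 8 liver markers summed to at most 11.1 CPM in any library, while the 6 neuronal markers summed to at least 3325 CPM. LeuR 19 stood apart from the other libraries in blood markers (5 genes), at 19624 CPM beside at most 6778 CPM, and in choroid plexus markers (8 genes), at 532 CPM beside at most 301 CPM. It also had the highest mitochondrial share among males (5.55%) and 16.8% of its counts in its 50 highest genes. Results for LeuR that were lost without LeuR 19 are given as such beside each gene, and the part of these marker levels in them was not tested.

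**Figure D1:**
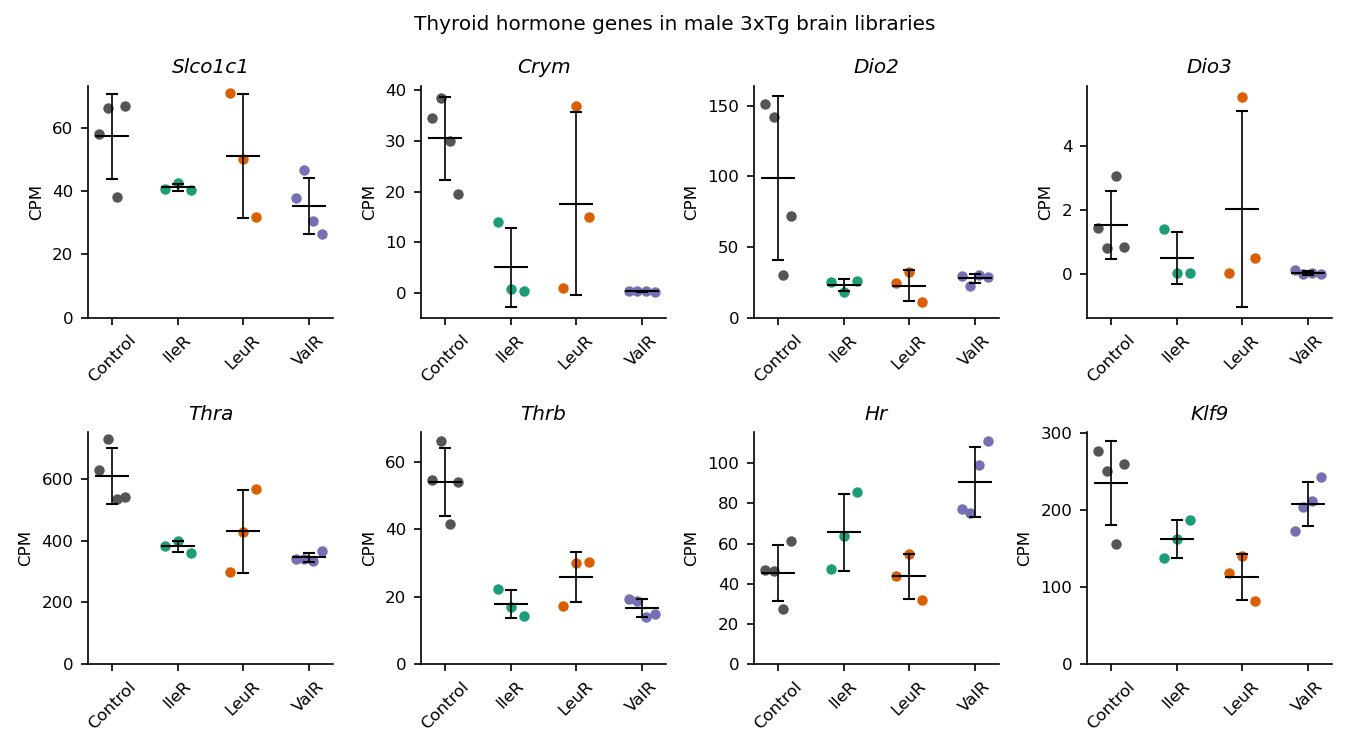
Level of each gene in CPM (vertical axis, linear) in each male library by diet; points are libraries, the horizontal mark is the mean and the bar 1 SD (n = 4 Control, 3 IleR, 3 LeuR and 4 ValR). All 4 ValR points of Crym lie under 1 CPM, and the Thrb points of every restricted library lie under every Control point.

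Per kilobase of exon, the order of the mean levels in Control males was Thra, Klf9, Dio2, Slco1c1, Crym, Thrb, Hr and Dio3. Thra averaged 132 ± 19.7 CPM per kilobase (SD, n = 4) and was above Klf9, at 48.9 ± 11.3, in all 4 libraries. The ranges of the 5 genes from Dio2 (17.0 ± 9.94) to Hr (6.57 ± 2.02) overlapped between neighbours, and Dio3 was lowest at 0.758 ± 0.517. In Control females the order was Thra, Klf9, Crym, Dio2, Slco1c1, Hr, Thrb and Dio3, with the ranges of Crym to Thrb again overlapping between neighbours. No member passed the test between Control males and Control females (edgeR, 0 of 8, and 0 at an unadjusted p under 0.05), where 0.178% of all genes did (0.147% higher and 0.0312% lower in males) and 9.13% had an unadjusted p under 0.05. DESeq2 and limma voom also called 0 of 8. The log2 differences, male minus female, ran from -0.82 (Crym) to 0.63 (Dio2).

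In males, Dio2 and Thrb were lower than Control on each of the 3 restricted diets, Thra was lower on IleR and ValR, Klf9 on LeuR, and Crym and Dio3 on ValR, while Hr was higher on ValR. Of the 8 genes, 3 passed the edgeR test for IleR (all lower, where 15.3% of all genes passed, 8.68% lower and 6.63% higher), 3 for LeuR (all lower, where 10.1% passed, 6.33% lower and 3.81% higher) and 6 for ValR (5 lower and 1 higher, where 23.5% passed, 12.4% were lower and 11.1% higher). For IleR, LeuR and ValR the 8 genes had median log2 differences of -1.14, -0.65 and -1.26, beside 0.04, 0.05 and 0.03 over all genes tested. The comparisons share the 4 Control libraries. With the hindbrain score as a covariate, 0 of 8 members passed in any of the 3 comparisons, also at an unadjusted p under 0.05. Few of all genes passed in this fit either, with 0%, 0.0451% and 0% called for IleR, LeuR and ValR and 4.88%, 4.35% and 6.05% at an unadjusted p under 0.05. The scores of Control and restricted males do not overlap, and the SE of the 12 differences that had passed grew 1.52 to 3.30 times. Of these 12 differences, 2 were at least as large with the score, Hr at 1.28 ± 0.75 and Dio3 at -5.74 ± 3.37 for ValR. Another 8 were smaller, such as Klf9 at -0.88 ± 0.47 for LeuR, Crym at -3.99 ± 2.72 for ValR and Thrb at -0.53 ± 0.44 for ValR, and 2 turned sign, both of Thra. In bulk RNA, fewer cells of a type and less RNA per cell cannot be told apart.

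**Figure D2:**
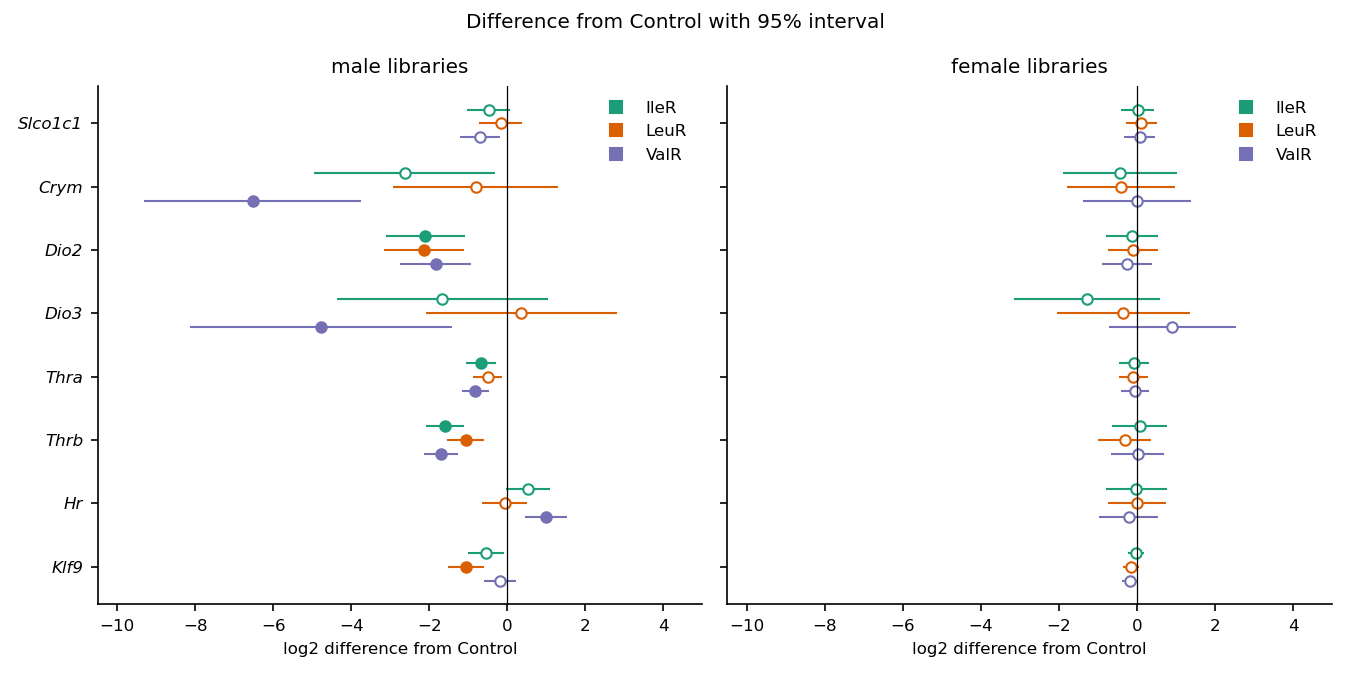
Log2 difference from Control (horizontal axis) with its 95% interval for each gene and restricted diet, males at left and females at right; filled points passed the edgeR test at an adjusted p of 0.05. In males 12 of 24 points are filled and in females none.

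Slco1c1 (ENSMUSG00000030235, GRCm38 chr6:141524368-141570177), the T4 transporter gene, measured 58.0, 66.2, 38.1 and 67.0 CPM in the Control male libraries 1, 3, 4 and 5. The IleR libraries measured 40.8, 42.6 and 40.3 CPM, the LeuR libraries 71.1, 50.1 and 31.9 CPM, and the ValR libraries 37.8, 46.6, 30.7 and 26.5 CPM. LeuR spanned the whole Control range, and 3 of 4 ValR libraries were below every Control library. The log2 difference for ValR was -0.70 ± 0.24 (SE), with an adjusted p of 0.0502 in edgeR, just outside the threshold. It passed in DESeq2 (adjusted p = 0.025), in a fit of the 2 groups alone (0.0393), and without Control 4 (0.0164), LeuR 19 (0.0280), LeuR 21 (0.0226) or ValR 9 (0.0265). Endothelial markers, 9 genes of the cells that carry this transporter at the blood-brain barrier, summed to 354 to 470 CPM in Control and 383 to 519 CPM in ValR males.

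Crym (ENSMUSG00000030905, GRCm38 chr7:120186380-120202111), the T3-binding protein gene, had the largest SD of log2 CPM of the members, 2.94 over the 14 male libraries, which ranked 25 among 13996 genes. Control males measured 34.5, 38.4, 29.9 and 19.4 CPM. The ValR libraries 7, 9, 10 and 12 measured 0.360, 0.404, 0.413 and 0.127 CPM, from 5, 6, 7 and 2 counts. All 4 ValR libraries were below every Control library, and their pooled level was 1.08% of the pooled Control level, with a counting interval of 0.656% to 1.67% that covers counting error only. The edgeR log2 difference was -6.52 ± 1.29 with an adjusted p of 0.00268. Crym is among the genes the study named from these libraries, so this call is not independent evidence. IleR libraries split, with IleR 13 at 14.1 CPM and IleR 14 and IleR 17 at 0.716 and 0.355 CPM. All 3 were below Control, but the difference of -2.63 ± 1.08 did not pass (adjusted p = 0.119). It passed without IleR 13 (-5.77, adjusted p = 0.0085) and in limma voom (-4.37, 0.0410). LeuR libraries ranged from 0.940 CPM in LeuR 19 and 15.0 in LeuR 21 to 36.8 in LeuR 20, which lay within the Control range. Their log2 difference was -0.81 ± 0.98 (adjusted p = 0.638), and it was -0.24 without LeuR 19, -1.97 without LeuR 20 and -2.21 in limma voom.

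Crym under 1 CPM and the highest hindbrain scores were found in the same libraries, of which all but 1 were male. The 8 libraries with Crym under 1 CPM, 7 male and 1 female, were the 8 with the highest scores, none below -0.15. The other 29 libraries measured at least 9.50 CPM, and the highest score among them was -0.58. The limit of 1 CPM lies in a gap of these same data. How many other genes part the libraries in this way was not computed. The female library was LeuR 45, with 0.185 CPM from 3 counts and a score of 0.42.

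Dio2 (ENSMUSG00000007682, GRCm38 chr12:90724552-90738438), the T3-producing deiodinase gene, measured 151, 142, 30.4 and 71.8 CPM in Control males. The IleR libraries measured 25.1, 18.3 and 25.9 CPM, the LeuR libraries 24.8, 32.5 and 10.7 CPM, and the ValR libraries 29.4, 22.7, 30.0 and 28.9 CPM. All 3 IleR and all 4 ValR libraries were below every Control library, and LeuR 20 lay above Control 4. Control libraries were spread more widely than the restricted ones, with Control 1 and Control 3 far above Control 4. The log2 differences of Dio2 were -2.10 ± 0.47 for IleR (edgeR adjusted p = 0.00954), -2.13 ± 0.47 for LeuR (0.0162) and -1.83 ± 0.42 for ValR (0.00684). The IleR call was lost without IleR 14 (adjusted p = 0.0531), and the LeuR call without Control 3 (0.0505) or LeuR 19 (0.0644). Astrocyte markers, 9 genes of the main cells of Dio2, summed to 1085 to 1974 CPM in Control males and to 2350 to 2864 in IleR, 1411 to 2634 in LeuR and 1976 to 2760 in ValR. The 4 tanycyte markers summed to 11.9 to 23.7 CPM in Control and 3.38 to 33.5 CPM in restricted males, and their part in the result was not tested. Dio2 exons share 100 bases (1.72%) with Gm26512 on the opposite strand, which had 4 to 25 counts.

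Dio3 (ENSMUSG00000075707, GRCm38 chr12:110279068-110281097), the hormone-inactivating deiodinase gene, was near the limit of counting. Control males had 21, 14, 48 and 15 counts, or 1.43, 0.828, 3.05 and 0.838 CPM. The ValR libraries 7, 9, 10 and 12 had 2, 0, 1 and 0 counts, all below Control. A count of 0 allows up to 0.202 CPM in ValR 9 and 0.191 CPM in ValR 12. Their pooled level was 3.25% of Control, with a counting interval of 0.659% to 9.78%. Dio3 passed the edgeR test for ValR (adjusted p = 0.0407), and the call was lost without any 1 of the 4 Control or 4 ValR libraries (adjusted p from 0.0513 to 0.101). IleR 13 had 23 counts and IleR 14 and IleR 17 had 1 each. LeuR libraries 19, 20 and 21 had 1, 72 and 9 counts, and LeuR 20 was above every Control library. The log2 differences were -1.66 ± 1.26 for IleR (adjusted p = 0.420) and 0.36 ± 1.14 for LeuR (0.876), and the latter was -2.52 without LeuR 20. The IleR value ranged from -4.85 without IleR 13 to -1.04 without IleR 14, and leaving out Control 4 also moved it by more than 1.5 times. The libraries with most Dio3 on these 2 diets, IleR 13 and LeuR 20, were also those with most Crym.

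Thra (ENSMUSG00000058756, GRCm38 chr11:98740638-98769006), the receptor gene with the higher level per kilobase, measured 628, 729, 534 and 542 CPM in Control males. All 3 IleR libraries (384, 398 and 362 CPM) and all 4 ValR libraries (341, 340, 334 and 368 CPM) were below every Control library. Thra fell by 0.67 ± 0.18 on the log2 scale for IleR (edgeR adjusted p = 0.0205) and by 0.81 ± 0.16 for ValR (0.00269). The IleR call was lost without Control 1 (0.0502), Control 3 (0.0625), IleR 13 (0.0510), IleR 14 (0.0606) or IleR 17 (0.0708). LeuR libraries measured 298, 429 and 566 CPM, with LeuR 21 inside the Control range, and their difference of -0.50 ± 0.18 did not pass (adjusted p = 0.0863). It passed without LeuR 21 (-0.73, 0.00989) and in DESeq2 (0.0346). Once the score was added as a covariate the sign turned in all 3 comparisons, to 0.23 for IleR, 0.17 for LeuR and 0.18 for ValR. Thra exons share 263 bases (5.70%) with Nr1d1 on the opposite strand, which had 1239 to 3570 counts, and whether the counting used strand is not given in the sources used here.

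Thrb (ENSMUSG00000021779, GRCm38 chr14:17660261-18038090), the other receptor gene, measured 54.5, 66.1, 41.6 and 54.1 CPM in Control males. The IleR libraries measured 22.3, 17.1 and 14.2 CPM, the LeuR libraries 17.4, 30.1 and 30.2 CPM, and the ValR libraries 19.2, 18.8, 13.9 and 14.8 CPM. Every restricted library was below every Control library. Thrb fell by 1.60 ± 0.23 on the log2 scale for IleR (edgeR adjusted p = 0.00117), by 1.06 ± 0.22 for LeuR (0.0125) and by 1.70 ± 0.21 for ValR (0.000165). The IleR and ValR calls were kept without any 1 of the 14 libraries, and the LeuR call was lost without LeuR 19 (-0.84, adjusted p = 0.0566). The 6 neuronal markers summed to 3886 to 5687 CPM in Control males, 3325 to 3725 CPM in IleR, 3325 to 3698 CPM in LeuR and 3536 to 4190 CPM in ValR, and their part in the result was not tested.

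Hr (ENSMUSG00000022096, GRCm38 chr14:70552212-70573548) and Klf9 (ENSMUSG00000033863, GRCm38 chr19:23141226-23168134) are both T3-induced genes. Hr measured 47.0, 46.1, 27.2 and 61.3 CPM in Control males and 77.1, 75.1, 99.0 and 111 CPM in ValR males, with no overlap. The log2 difference for ValR was 1.00 ± 0.25 (edgeR adjusted p = 0.0106), and the call was kept without any 1 of the 14 libraries. IleR libraries measured 47.4, 63.6 and 85.7 CPM and LeuR libraries 44.1, 54.6 and 32.2 CPM, with differences of 0.53 ± 0.26 (adjusted p = 0.202) and -0.06 ± 0.27 (0.913). Klf9 measured 277, 251, 155 and 260 CPM in Control males and 118, 140 and 81.3 CPM in LeuR males, again with no overlap. It fell by 1.06 ± 0.22 on the log2 scale for LeuR (adjusted p = 0.0115). IleR libraries measured 138, 162 and 188 CPM (-0.54 ± 0.21, adjusted p = 0.107), and the difference passed without Control 4 (-0.69, 0.0184). ValR libraries measured 173, 204, 212 and 243 CPM, all inside the Control range, with a difference of -0.18 ± 0.19 (0.558). For LeuR, a fit of the 2 groups alone called no gene at all, and Dio2, Thrb and Klf9 had adjusted p of 0.111, 0.0837 and 0.0847 in it.

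Between restricted diets in males, Crym and Klf9 differed, both between LeuR and ValR, where 2.75% of all genes passed (1.03% higher and 1.73% lower in LeuR). Crym was higher in LeuR than in ValR, by 5.71 ± 1.31 on the log2 scale (edgeR adjusted p = 0.0490), and Klf9 was lower in LeuR (-0.88 ± 0.21, adjusted p = 0.0495). Both calls lie at the threshold, and limma voom did not call Crym (4.26, adjusted p = 0.212). Crym was no longer called on leaving out any 1 of 9 libraries (Control 1, 3 or 5, IleR 14, LeuR 20 or 21, or ValR 7, 10 or 12), and Klf9 on leaving out any 1 of 11 (the same except LeuR 20, and also IleR 13, IleR 17 and LeuR 19), with adjusted p up to 0.152 and 0.160. Between IleR and LeuR, and between IleR and ValR, 0 of 8 members and 0% of all genes passed in edgeR. At an unadjusted p under 0.05 there were 2 and 1 members, beside 11.3% and 2.83% of all genes. DESeq2 and limma voom also called 0 members in these 2 comparisons.

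**Figure D3:**
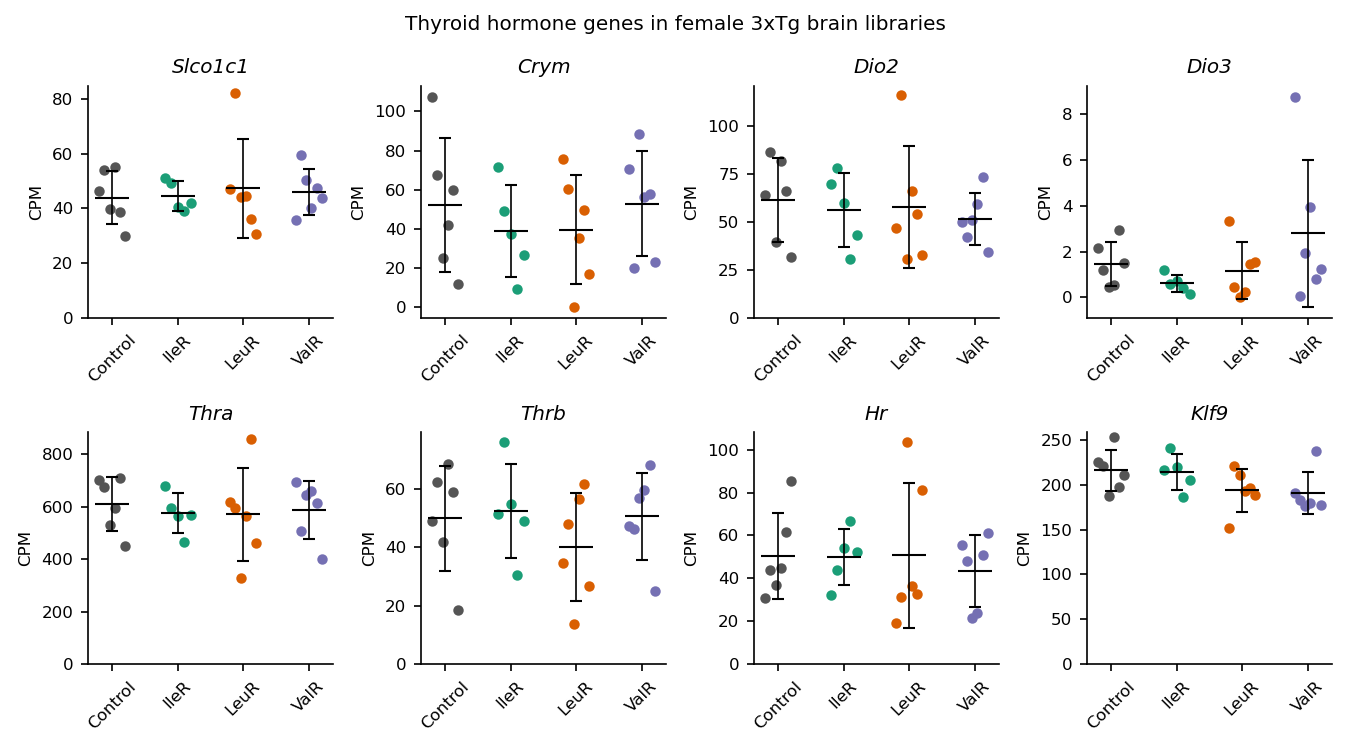
Level of each gene in CPM (vertical axis, linear) in each female library by diet, drawn as for males (n = 6 Control, 5 IleR, 6 LeuR and 6 ValR). The ranges of the 4 diets overlap for every gene, and LeuR 45 is the lowest point for Crym.

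In females, no member passed the test on any diet. In each of the 3 comparisons with Control, 0 of 8 passed in edgeR, DESeq2 and limma voom, none had an unadjusted p under 0.05 in edgeR, and 0% of all genes passed in edgeR. Of all genes, 2.84%, 4.03% and 3.82% had an unadjusted p under 0.05 for IleR, LeuR and ValR. Crym ranged from 12.1 to 108 CPM in Control (median 50.9), 9.50 to 71.5 in IleR (37.3), 0.185 to 75.6 in LeuR (42.6) and 20.1 to 88.6 in ValR (57.1). The ValR difference of Crym was 0.01 on the log2 scale, with an interval of -1.38 to 1.39. Dio2 ranged from 31.7 to 86.5 CPM in Control (median 65.1), 30.7 to 78.2 in IleR (60.1), 30.6 to 117 in LeuR (50.4) and 34.1 to 73.2 in ValR (50.5). Thrb medians were 53.9, 51.4, 41.2 and 51.9 CPM on Control, IleR, LeuR and ValR, and Thra medians 633, 569, 580 and 629 CPM. The intervals for Thrb against Control reached from -0.64 to 0.77 for IleR, from -0.99 to 0.36 for LeuR and from -0.66 to 0.69 for ValR. Slco1c1 medians were 43.0, 41.9, 44.2 and 45.5 CPM, and Klf9, the least variable member in females, ranged from 152 to 253 CPM over all 23 libraries. Hr ranged from 19.0 CPM in LeuR 43 to 104 CPM in LeuR 45. Dio3 ranged from 0 counts in LeuR 45 to 147 counts in ValR 31, or 8.75 CPM. Between restricted diets in females, 0 of 8 members passed in edgeR, DESeq2 or limma voom, and 0% of all genes passed in edgeR. Only Dio3 between IleR and ValR had an unadjusted p under 0.05 in edgeR (-2.20 on the log2 scale), where 4.16% of all genes did.

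The difference between the sexes in response was itself tested. For ValR, Crym (-6.54 ± 1.49 on the log2 scale, male response minus female response, edgeR adjusted p = 0.0167) and Thrb (-1.72 ± 0.46, 0.0329) passed, where 4.25% of all genes passed (3.57% lower and 0.677% higher). For IleR and LeuR, 0 of 8 members passed, where 0.0979% and 0.00445% of all genes did. At an unadjusted p under 0.05 there were 4 and 2 members, where 19.1% and 13% of all genes were. DESeq2 called 2, 2 and 5 members for IleR, LeuR and ValR, where it called 4.64%, 1.38% and 10.5% of all genes, limma voom called none, and with the hindbrain score as a covariate none passed. The Crym call was lost without ValR 12 (adjusted p = 0.0531). The Thrb call was lost without any 1 of 11 libraries, which were the males Control 1, 3 and 5 and ValR 7, 10 and 12 and the females Control 27 and 30 and ValR 33, 34 and 35, with adjusted p up to 0.0828.

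**Figure D4:**
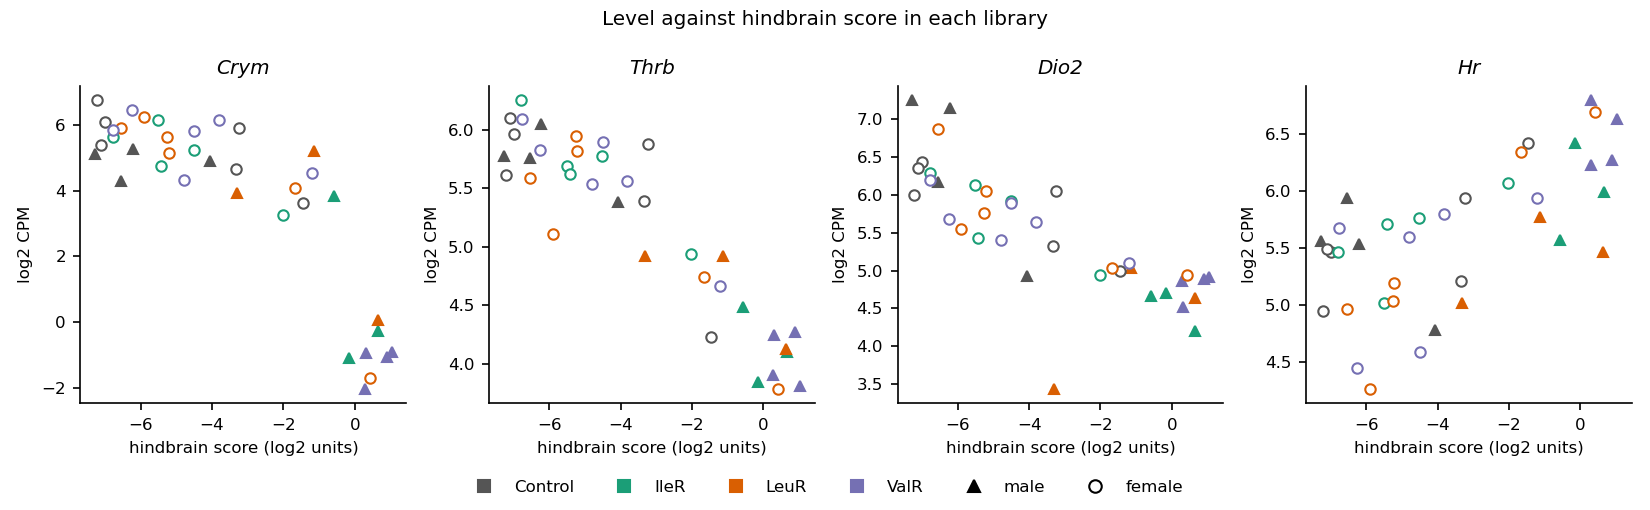
Log2 CPM of Crym, Thrb, Dio2 and Hr (vertical axes) against the hindbrain score in log2 units (horizontal axes); each point is a library, coloured by diet, with filled triangles for males and open circles for females. Crym, Thrb and Dio2 are lower and Hr is higher toward high scores, also among the 23 female libraries.

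Among the 23 female libraries, the level of 6 of 8 members was correlated with the hindbrain score in a permutation test with 100000 permutations, adjusted over all genes. By the same test 46.8% of 20320 genes were correlated with it, 24% negatively and 22.9% positively, and 52.5% at an unadjusted p under 0.05, so a correlation with the score was common. Pearson's r was -0.76 for Crym (Spearman's rho -0.68), -0.82 for Dio2 (-0.79), -0.59 for Slco1c1 (-0.70), -0.74 for Thra (-0.56), -0.84 for Thrb (-0.70) and 0.70 for Hr (0.67). The permutation p of r, adjusted over all genes, was 0.000126 for Crym, 7.5e-05 for Dio2 and Thrb, 0.00844 for Slco1c1, 0.000219 for Thra and 0.00095 for Hr. The unadjusted p behind the value of Dio2 and Thrb, 1e-05, is the smallest that these permutations can give. The unadjusted permutation p of rho was 0.00047 for Crym, 1e-05 for Dio2, 0.00031 for Slco1c1, 0.00635 for Thra, 0.0004 for Thrb and 0.00051 for Hr. Without the 2 libraries farthest from the median score, r was -0.74, -0.78, -0.74, -0.55, -0.75 and 0.61 in the order Crym, Dio2, Slco1c1, Thra, Thrb and Hr. Klf9 (r = -0.36, rho = -0.52, permutation p adjusted over all genes = 0.161 for r and unadjusted 0.0115 for rho) and Dio3 (r = -0.14, rho = -0.01, 0.647 and 0.948) did not pass for r.

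Within the female Control, LeuR and ValR groups of 6 libraries, the sign of r was kept by Crym (-0.91 to -0.56), Dio2 (-0.84 to -0.81), Slco1c1 (-0.94 to -0.35), Thra (-0.84 to -0.65), Thrb (-0.93 to -0.75) and Hr (0.47 to 0.94). These are the genes that passed over all female libraries, which include these groups, so a kept sign was likely beforehand. The share of all genes that keep their sign was not computed. Unadjusted exact permutation p of these genes ran from 0.0111 (Crym, LeuR) to 0.511 (Slco1c1, ValR). The sign of r was not kept by Klf9 (-0.71 to 0.23) or Dio3 (-0.51 to 0.15). None of the 24 correlations of the 8 members in these groups passed an exact permutation test adjusted over all of them, with a lowest adjusted p of 0.15. No correlation was computed in the IleR group of 5 libraries, since 6 was set as the fewest.

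Among the 10 restricted male libraries, 5 of 8 members had an unadjusted permutation p under 0.05 for r with the score, as did 19.7% of 22168 genes. Adjusted over all genes, 0 of 8 members and 0% of all genes passed, with a lowest adjusted permutation p of 0.164 among the members. Pearson's r was -0.75 for Crym (unadjusted permutation p = 0.0101), -0.90 for Thra (0.00221), -0.79 for Thrb (0.00494), 0.70 for Hr (0.02) and 0.74 for Klf9 (0.0194), while it was 0.67 for Dio2 (0.0743), -0.57 for Dio3 (0.0935) and 0.15 for Slco1c1 (0.64). Spearman's rho ran from -0.71 (Thra, unadjusted permutation p = 0.0268) to 0.49 (Hr, 0.157). Without LeuR 21, which had the lowest score of these libraries, and LeuR 20, r was -0.59 for Crym, -0.45 for Thra, -0.35 for Thrb, 0.28 for Hr and 0.16 for Klf9 over the remaining 8 libraries, with unadjusted permutation p of at least 0.121. It was -0.59 for Dio3, little different from its value over 10 libraries, and 0.13 for Dio2 and -0.03 for Slco1c1. The values of r for Thra, Thrb, Hr, Klf9 and Dio2 thus rest on those libraries, while that for Crym was nearer to its value over 10 libraries. LeuR 21 also carried 691 CPM of the 8 hypothalamic markers, where the other male libraries had at most 4.10 CPM, and it had the lowest Dio2 and Klf9 and the highest Thra of the restricted male libraries.

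Among the genes most alike to Crym in pattern, by Pearson's r of log2 CPM, were Foxo6 (0.98), Icam5 (0.98), St6galnac5 (0.97) and Pde1a (0.97) over the 14 male libraries. Over the 23 female libraries they were Icam5 (0.98), Tnfaip8l3 (0.96), Gda (0.96) and Ddn (0.96), so Icam5, which encodes telencephalin, an adhesion protein of telencephalic neurons, was named in both sexes. The nearest gene in males was Tacc1 for Dio2 (0.97), Crym for Dio3 (0.92), Abhd2 for Slco1c1 (0.93), Src for Thra (0.98), 2700081O15Rik for Thrb (0.99), Syndig1 for Hr (0.96) and Aak1 for Klf9 (0.97). In females it was Ppp2r5a for Dio2 (0.92), Acvr2a for Dio3 (0.89), Ezr for Slco1c1 (0.89), Celf4 for Thra (0.94), Ankrd33b for Thrb (0.98), Tdp2 for Hr (0.93) and Inip for Klf9 (0.92). These values describe libraries that share diet and region content, among 13884 to 13996 genes, and carry no test.

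Of 39 other genes of the pathway in 5 lists, 36 were tested in males. For IleR, 2 were higher and 3 lower, for LeuR 1 higher and 6 lower, and for ValR 4 higher and 6 lower, beside 15.3%, 10.1% and 23.5% of all genes that passed in either direction. The median log2 difference of the lists together was -0.10, -0.18 and -0.03, beside 0.04, 0.05 and 0.03 over all genes. In females 0 of 36 passed in any comparison with Control. Serpina7, Dio1 and Cga had at most 3 counts in every library.

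Among 6 transporter genes, Slc7a8, an amino acid transporter that also carries thyroid hormone, was lower on all 3 diets, from 75.7 ± 17.8 CPM (SD, n = 4) in Control to 46.9 ± 5.16 (n = 3) in IleR, 43.2 ± 12.2 (n = 3) in LeuR and 47.9 ± 4.57 (n = 4) in ValR males. Its edgeR adjusted p were 0.0318, 0.0234 and 0.0187, and each was lost on leaving out 1 of several libraries. These were Control 3 or 5 or any IleR library for IleR, Control 3 or 5 or LeuR 19 for LeuR, and Control 3 or ValR 7 for ValR (adjusted p up to 0.108).

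Among 13 receptor partner and coregulator genes, Tbl1xr1, a subunit of the corepressor complex, was lower on all 3 diets (-0.45, -0.50 and -0.33 on the log2 scale, edgeR adjusted p = 0.00921, 0.0111 and 0.0205). In LeuR, the coactivators Ncoa1 (-0.47, adjusted p = 0.0265) and Ncoa2 (-0.65, 0.0122) and the corepressor Ncor1 (-0.80, 0.0191) were lower. In ValR, the coactivator Ncoa3 (-0.34, 0.0233) and the retinoid X receptor gene Rxrg (-2.73, 0.0296) were lower and the corepressor subunit Gps2 was higher (0.45, 0.00609). Rxrg rested on Control 1, at 41.9 CPM, and was -1.40 without it (adjusted p = 0.164). Limma voom did not call Rxrg either (-1.92, adjusted p = 0.204). Of these calls, only that of Gps2 was kept without any 1 of the 14 libraries. Without LeuR 19 each of the LeuR calls in this list was lost, with adjusted p of 0.0611 for Tbl1xr1, 0.124 for Ncoa1, 0.0647 for Ncoa2 and 0.0899 for Ncor1. Ncoa1 was also lost without Control 1 (0.0807), Control 3 (0.0795), Control 5 (0.0578) or LeuR 21 (0.0538), and Ncor1 without Control 1 (0.0593) or Control 3 (0.0613). Tbl1xr1 was lost for IleR without IleR 14 (0.0503) and for ValR without Control 1 (0.0553), Control 3 (0.0645) or ValR 7 (0.0654). In ValR, Ncoa3 was lost without Control 3 (0.0738), Control 5 (0.0695), ValR 7 (0.0711) or ValR 12 (0.0517), and Rxrg also without ValR 7 (0.0616), ValR 10 (0.0845) or ValR 12 (0.0766).

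Among 6 genes of the hypothalamus-pituitary-thyroid axis, Trh, the thyrotropin-releasing hormone gene, was higher in LeuR (4.58 on the log2 scale, edgeR adjusted p = 0.0190). It measured 0.445 to 2.46 CPM in Control and up to 72.0 CPM in LeuR 21, the library with the hypothalamic markers, and was 2.90 higher without it (adjusted p = 0.0636). The call was also lost without Control 1 (0.0581) or Control 3 (0.0662) and in limma voom (3.97, adjusted p = 0.0940). Tshb, which encodes the beta chain of thyrotropin, was higher in ValR (adjusted p = 0.00893) at 0.533 ± 0.229 against 0.0776 ± 0.0335 CPM, from at most 2 counts in any Control library.

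Among 9 genes known to respond to T3 in brain, Nrgn, a gene of forebrain neurons, was lower on all 3 diets, from 1006 ± 397 CPM in Control to 75.9 ± 17.5 in IleR, 92.6 ± 72.8 in LeuR and 22.0 ± 16.5 in ValR (edgeR adjusted p = 0.0077, 0.0185 and 0.000326). The LeuR call was lost without Control 3 (0.0503). Itga7, an integrin gene, was higher in IleR (1.31 on the log2 scale, adjusted p = 0.00624) and ValR (1.58, 0.000798), as was Gli1, a hedgehog-responsive transcription factor gene (1.94, 0.0291, and 2.44, 0.00463). The IleR call of Gli1 was lost without Control 1, 3 or 5 or IleR 14 or 17 (adjusted p up to 0.101). None of the 22 calls of pathway genes was kept in the fit that included the score, where the SEs grew 1.31 to 2.84 times. Of these 22 differences, 3 were at least as large with the score, among them Gps2 for ValR (0.53) and Trh for LeuR (6.94), 16 were smaller and 3 turned sign. Fitting only the 2 groups compared, edgeR called none of the 7 genes named here for LeuR (Slc7a8, Ncoa1, Ncoa2, Ncor1, Tbl1xr1, Trh and Nrgn, adjusted p from 0.0824 to 0.121), nor Gli1 for IleR (0.0648). No member of the list of 5 binding protein and metabolism genes passed, of which 3 were tested.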

How the data were processed

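RNA-seq of brain from 3xTg mice of both sexes was analysed from the authors' tables. The authors aligned reads to GRCm38 and deposited an expected count per Ensembl gene and library, not normalised; the aligner and its version are not given in the sources used here. The authors took out clear outliers after a principal component analysis, and which libraries these were is not given in the sources used here. Whether the 10 male libraries without counts were among them is not stated. The labels and methods differ on polyA or total RNA selection, and the results text describes whole brain where the methods describe the left hemisphere. Deposited fold changes and p-values of the authors' comparisons (log2, unadjusted and adjusted) were not used.

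Expected counts were rounded. A gene entered a fit when some diet group had 1 or more counts in all its libraries, and all 8 members passed in both sexes; Dio3 did not pass through ValR males or LeuR females. The 4 diets of a sex were fitted in 1 model in R 4.3.3 with edgeR 4.0.16 (TMM, quasi-likelihood test, Benjamini-Hochberg adjustment over all genes, threshold 0.05); a model of all 37 libraries gave the diet by sex tests. Limma 3.58.1 (voom) and DESeq2 1.42.0 were alternatives. CPM used TMM, and log2 CPM a prior count of 2. CPM per kilobase used exon length from GENCODE M21. Total counts of 10672599 to 25722333 set the precision, and intervals on pooled counts (95%, exact) cover counting error only. Marker lists for 13 regions and cell types were written from general knowledge. The study counts its replicates as mice. All 73 pairs of libraries within groups differed beyond counting error. The script was tested on simulated data. The named genes were the 8 members, the pathway genes that passed a male test against Control or had at most 3 counts, and the genes most alike to each member in log2 CPM among genes with a mean of at least 1. Some genes that this rule names are not reported here. The members, lists and tests were chosen with earlier results of these data known.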

Additional observations from a re-analysis of the deposited data

Results flagged for a closer look

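In 48 groups of 4 to 6 libraries, 1 library of a group stood apart from the others 3 times, where chance gives about 2.4. Dio2 in ValR males was lowest in ValR 9, at 22.7 CPM, beside 28.9 CPM in the nearest library. Slco1c1 in LeuR females was highest in LeuR 44, at 82.1 CPM, beside 47.0 CPM. Klf9 in ValR females was highest in ValR 35, at 237 CPM, beside 191 CPM.

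The ValR response differed between the sexes for Crym, by -6.54 on the log2 scale (male minus female), and for Thrb, by -1.72, both by the interaction test in edgeR. The hindbrain score of Control and ValR males did not overlap, while the scores of Control and ValR females did.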

How the results depend on the processing

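No paired analysis was possible because library numbers are unique and the groups share none. RLE size factors and a fit without a filter changed none of 28 member results, but the fit without a filter also called Hr between LeuR and ValR males, for 3 members in place of 2. With the hindbrain score as a covariate, 0 members passed in males for IleR, LeuR or ValR, between restricted diets or by sex. Its log2 differences reversed for Thra (0.23 for IleR, 0.17 for LeuR and 0.18 for ValR), Crym (0.85), Dio3 (-0.31) and Hr (0.16) for LeuR, Klf9 (0.0497) for ValR, Nrgn (0.50) for IleR, and Slc7a8 (0.0637) and Rxrg (2.29) for ValR. Fitting only the 2 groups compared gave 0 members for LeuR in males and 0 between restricted diets. Limma voom gave 1 between restricted diets and 0 by sex, and reversed Dio3 for LeuR (-1.497). DESeq2 gave 4 between restricted diets and 9 by sex. By sex, DESeq2 called 4.64%, 1.38% and 10.5% of all genes for IleR, LeuR and ValR, where edgeR called 0.0979%, 0.00445% and 4.25%. Shares of all genes between restricted diets are not given here for the fit without a filter, limma voom or DESeq2. Those counts therefore describe the methods and not the members. In restricted males 5 members were correlated with the score when p was adjusted over the 8 members, and 0 with Spearman's rho, without the 2 farthest libraries, or when p was adjusted over all genes, an alternative chosen after seeing the data. The causes were not tested.

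Leaving out 1 library gave 1 to 4 members for IleR, 1 to 4 for LeuR and 5 to 7 for ValR in males, 0 to 3 between restricted diets and 0 to 7 by sex, and 0 in each female comparison and between Control males and females. It reversed Dio3 for LeuR without LeuR 20 (range -2.52 to 0.96), Slco1c1 for LeuR without LeuR 21 (-0.48 to 0.10) and Hr for LeuR without Control 5 (0.12) or LeuR 21 (-0.26 to 0.14). DESeq2 called 3611 genes for LeuR in males where edgeR called 2249, and in females 8, 1 and 0 for IleR, LeuR and ValR, where limma voom called 1, 0 and 0 and edgeR none (577, 820 and 777 at an unadjusted p under 0.05). Fits with the score called 0, 10 and 0 genes in males. Without 1 library, genes called in all numbered 1838 to 4357 for IleR, 543 to 3952 for LeuR and 3843 to 5990 for ValR in males, and 0 to 5 for IleR in females. Such ranges are not given between restricted diets or by sex, so the member counts there describe the fits and not the members. Depth limits Dio3, with 0 to 147 counts per library.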
